A study of Mus musculus with 13 samples.

Results

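Checkpoint ligands and receptors are surface or secreted proteins with which tumor cells and myeloid cells restrain T cells, and suppressive enzymes do the same by removing or producing small molecules. Both kinds were followed here as 10 genes, found by symbol among the 21100 genes of an RNA sequencing count table: *Cd274*, *Havcr2*, *Lgals9*, *Vsir*, *Cd276*, *Vtcn1*, *Nos2*, *Arg2*, *Ptgs2* and *Nt5e*. All 10 were listed with a value in every tumor and all passed the filter on low counts, *Havcr2* through the GEM-BCC tumors, since its Tp-BCC tumors never reached the count the filter asks for. The tumors were basal cell carcinomas (BCC) of female mice. The 9 GEM-BCC tumors grew intradermally in 7 Ptch1+/- K14-CreERT2 p53fl/fl mice (K14-CreER2 in the sample labels), with Cre driven by the keratin 14 promoter of basal epithelium. These mice received 3 intraperitoneal injections of 300 µg tamoxifen and 1 X-ray dose of 4 Gy. GEM2 and GEM3 came from 1 mouse, and GEM7 and GEM8 from another. The 4 Tp-BCC tumors grew subcutaneously in the right flank of 4 Ptch1+/-p53fl/fl mice, each inoculated with 2000000 cells that descended from 1 GEM-BCC tumor. Both kinds of host carried Ptch1+/- and p53fl/fl alleles, and the Tp-BCC hosts carried no Cre. The Tp-BCC tumors therefore stand for 1 parental tumor and its transplants, whereas each GEM-BCC mouse had its own tumors, and the ages of the mice were not given.

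PD-L1, encoded by *Cd274*, binds PD-1 on T cells and lowers their activity, and interferon-gamma is its best known inducer. B7-H3 (*Cd276*) and B7-H4 (*Vtcn1*) belong to the same B7 family. VISTA (*Vsir*) is a B7-like protein carried mainly by myeloid cells, and TIM-3 (*Havcr2*) is a receptor of exhausted T cells, macrophages and dendritic cells for which galectin-9 (*Lgals9*) is a ligand. Inducible nitric oxide synthase (*Nos2*) and the mitochondrial arginase *Arg2* both consume arginine, cyclooxygenase-2 (*Ptgs2*) makes the precursor of prostaglandin E2, and CD73 (*Nt5e*) turns extracellular AMP into adenosine. In skin tumors these genes can be transcribed by the carcinoma cells themselves, by fibroblasts or by infiltrating leukocytes, and bulk RNA does not separate these sources.

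Depth, as the sum of expected counts, was 28075317 to 32629102 per GEM-BCC tumor but 15388027 to 17494912 per Tp-BCC tumor. The labels give all GEM-BCC tumors as batch 1 and all Tp-BCC tumors as batch 2, so batch and model cannot be told apart in any value below. Markers of basal epithelium were abundant in both models, with 12 genes such as *Krt5* and *Krt14* together at 12200 to 19300 CPM (counts scaled to the normalized size of the library) in GEM-BCC and at 9840 to 22500 CPM in Tp-BCC. Of the Tp-BCC tumors, TP2 and TP4 stood apart from TP1 and TP3 in that log2 CPM, relative to the mean of each gene, rose with the GC content of the transcripts in the first pair (Spearman's rho across 14284 genes of 0.592 and 0.589) and fell with it in the second (-0.39 and -0.472). In GEM-BCC tumors this rho was 0.363 for GEM1 and -0.311 to -0.149 for the remaining 8. Each value below is therefore also given for both pairs of Tp-BCC tumors where it matters.

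Levels were compared between genes as CPM per kb of transcript. *Cd276* ranked highest in GEM-BCC tumors at 52.7 ± 15.7 CPM per kb (SD, n = 9), followed by *Vsir* at 16.7 ± 4.98 and *Lgals9* at 13.9 ± 6.22. *Nt5e* (6.92 ± 5.47 CPM per kb) and *Arg2* (6.23 ± 5.54) came next. *Ptgs2* (0.995 ± 1.07 CPM per kb), *Nos2* (0.572 ± 0.201), *Vtcn1* (0.511 ± 0.328), *Cd274* (0.382 ± 0.195) and *Havcr2* (0.241 ± 0.125) were scarce. Of the 9 steps in this order, only 2 exceeded the larger SD of the neighbouring genes, that from *Cd276* to *Vsir* and that from *Lgals9* to *Nt5e*. In Tp-BCC tumors *Cd276* again ranked first at 85.2 ± 35.4 CPM per kb (SD, n = 4), *Lgals9* came next at 36.7 ± 9.73 and then *Vsir* at 5.98 ± 2.59. *Nos2* (1.75 ± 0.921 CPM per kb) stood above *Arg2* (0.876 ± 0.444), the reverse of their order in GEM-BCC, although that step was smaller than the SD of *Nos2*.

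**Figure D1:**
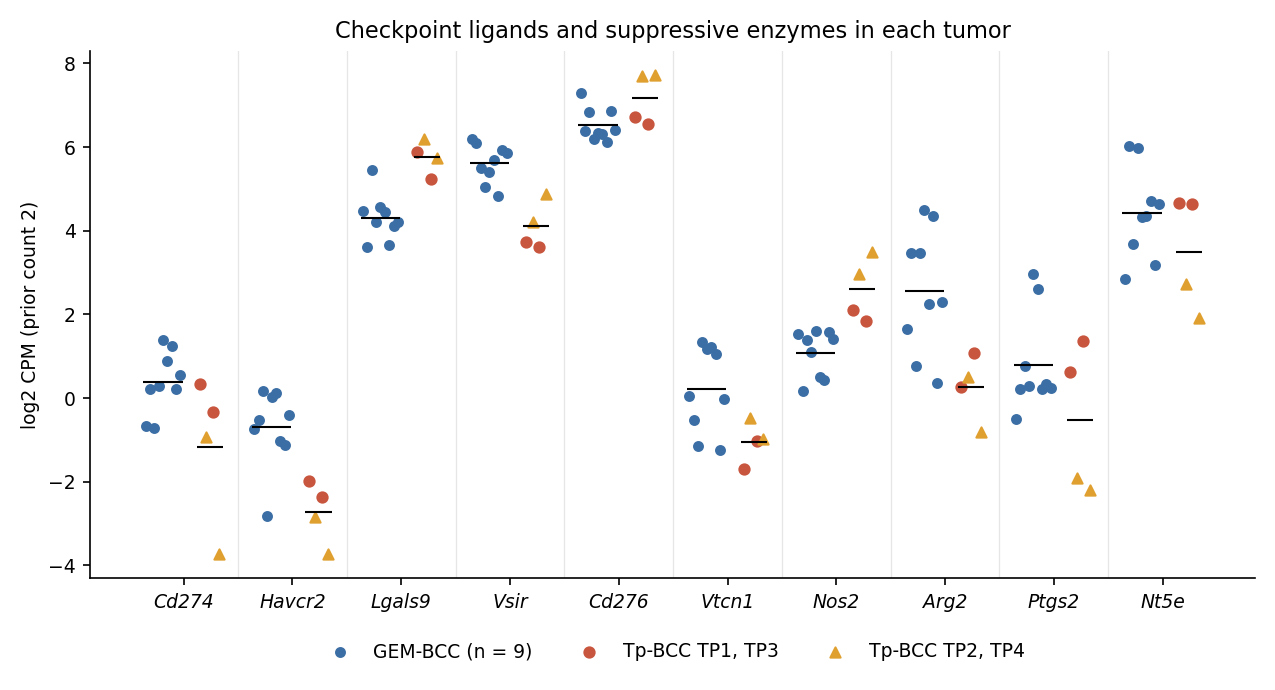
Log2 CPM (prior count 2, vertical axis) of the 10 genes in each of the 9 GEM-BCC tumors (blue) and in the Tp-BCC tumors TP1 and TP3 (red circles) and TP2 and TP4 (yellow triangles), with black lines at the mean of each model. The Tp-BCC tumors lie apart from all GEM-BCC tumors for *Nos2*, and TP2 and TP4 lie far under TP1 and TP3 for *Ptgs2* and *Nt5e*.

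Between models, *Lgals9* and *Nos2* were higher in Tp-BCC tumors, and *Vsir* and *Arg2* were lower. Thus 4 of the 9 genes other than *Havcr2* passed an adjusted p-value of 0.05, where 19.4% of the 14390 tested genes did (edgeR quasi-likelihood test, Benjamini-Hochberg adjustment over all tested genes). In the direction of Tp-BCC 2 passed (11.1% of all genes), and 2 passed in the direction of GEM-BCC (8.35%). With the added fold threshold of the study, an absolute log2 fold change above 2, *Arg2* was called (5.57% of all genes were called), lower in Tp-BCC (3.21%). *Havcr2* met both thresholds by its fitted log2 fold change of -2.71, but it entered the test only through the GEM-BCC tumors. The fold that its counts bound from below is also smaller than that threshold, so it is given apart and left out of these counts. The log2 fold changes of the other 9 genes had a median of -1.14, against -0.03 for all tested genes. Only for *Nos2* did the tumors of the models not overlap, as for 9.95% of all genes.

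The PD-L1 gene *Cd274* was scarce in both models. The GEM-BCC tumors held 0.538 CPM (17 counts, GEM3) at the lowest, 1.15 CPM at the median and 2.57 CPM (90 counts, GEM5) at the highest. TP1 held 1.18 CPM (20 counts), TP3 0.718 CPM (12 counts) and TP2 0.45 CPM (7 counts), and TP4 had 0 counts, which allows up to 0.214 CPM. TP1 and TP3 lay within the GEM-BCC range and the other two Tp-BCC tumors under it. Over all tumors *Cd274* had a log2 fold change of -1.22 (SE 0.67) that did not pass the test (edgeR adjusted p = 0.213). The value was -2.56 with TP2 and TP4 alone (adjusted p = 0.0485) and -0.55 with TP1 and TP3 alone (adjusted p = 0.614).

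Galectin-9 transcripts were among the clearest differences. *Lgals9* was at 12.2 CPM in the lowest GEM-BCC tumor (GEM2), at 18.6 CPM at the median and at 44.1 CPM in the highest (GEM3). The Tp-BCC tumors held 59.4 CPM (TP1), 73.0 CPM (TP2), 37.4 CPM (TP3) and 53.3 CPM (TP4). All but TP3 exceeded every GEM-BCC tumor, and TP3 exceeded all except GEM3. The mean rose from 21.2 ± 9.46 to 55.8 ± 14.8 CPM (SD, n = 9 and 4), a log2 fold change of 1.40 with an SE of 0.29 (edgeR adjusted p = 0.00424), or 2.63-fold. It stayed at 1.21 to 1.56 when any 1 tumor was left out, with an edgeR adjusted p of at most 0.0315. With TP1 and TP3 alone it was 1.19 (adjusted p = 0.0591), and with TP2 and TP4 alone 1.58 (adjusted p = 0.00299).

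Its receptor gene *Havcr2* was near the limit of detection. GEM-BCC tumors had 2 (GEM4) to 34 counts (GEM6), with a median of 0.618 CPM. TP1 had 3 counts, TP3 had 2, TP2 had 1 and TP4 had 0. Only GEM4 reached down into the Tp-BCC range. A tumor with 3 counts would be at 0.191 CPM on average over the Tp-BCC tumors, so *Havcr2* was at least 3.31-fold lower in Tp-BCC than the GEM-BCC mean of 0.632 ± 0.327 CPM (SD, n = 9; edgeR adjusted p = 0.0221 in a test it entered through GEM-BCC alone). Leaving out TP2 or TP4 raised the adjusted p to 0.0721 and 0.0598. The fitted log2 fold change was -2.07 with TP1 and TP3 alone (edgeR adjusted p = 0.164) and -4.07 with TP2 and TP4 alone (adjusted p = 0.0183). Receptor and ligand transcripts thus had fold changes of opposite sign between models.

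*Vsir*, encoding VISTA, was well expressed and lower in Tp-BCC tumors. GEM-BCC tumors spanned 28.5 CPM (GEM7) to 72.9 CPM (GEM1) with a median of 51.9 CPM. Tp-BCC tumors held 13.1 CPM (TP1), 18.6 CPM (TP2), 12.2 CPM (TP3) and 29.5 CPM (TP4). The top Tp-BCC tumor, TP4, just reached into the GEM-BCC range, and the other 3 lay under it. The means were 51.2 ± 15.3 and 18.3 ± 7.95 CPM (SD, n = 9 and 4), and the log2 fold change was -1.48 with an SE of 0.31 (edgeR adjusted p = 0.00432). *Vsir* was lower in either pair of Tp-BCC tumors, by a log2 fold change of -1.09 with TP2 and TP4 (adjusted p = 0.0255) and of -2.01 with TP1 and TP3 (adjusted p = 0.00378). It passed in every fit that left out 1 tumor, with an adjusted p of at most 0.0176.

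The other B7 family members did not pass the test. *Cd276*, the B7-H3 gene, was at 69.3 CPM in the lowest, 83.1 CPM in the median and 157 CPM in the highest GEM-BCC tumor (GEM7 and GEM1 at the ends). TP2 and TP4 were at 207 and 212 CPM, above all GEM-BCC tumors, and TP1 and TP3 at 104 and 93.4 CPM within their range. The log2 fold change of 0.69 (SE 0.27) had an edgeR adjusted p of 0.0784, and it passed without GEM1 (0.77, adjusted p = 0.0368) or without TP3 (0.87, adjusted p = 0.0357). *Cd276* was at 1.14 with TP2 and TP4 alone (adjusted p = 0.00402) and at 0.06 with TP1 and TP3 alone (adjusted p = 0.918). *Vtcn1*, the B7-H4 gene, was at 0.351 CPM (11 counts, GEM8) in the lowest, 0.953 CPM in the median and 2.44 CPM (74 counts, GEM4) in the highest GEM-BCC tumor. TP1 held 4 counts, TP4 held 6, TP3 held 7 and TP2 held 10, so that only TP1, at 0.235 CPM, lay under the lowest GEM-BCC tumor. Its log2 fold change was -1.63 (SE 0.62, edgeR adjusted p = 0.0775), and -1.81 without GEM3 (adjusted p = 0.0443). It also passed with the counts of tumors of the same mouse summed (-1.77, adjusted p = 0.0391) and by DESeq2 (-1.67, adjusted p = 0.0369). The value was -1.31 with TP2 and TP4 alone (adjusted p = 0.223) and -2.04 with TP1 and TP3 alone (adjusted p = 0.171).

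Promoter sequences of 8 of the 10 genes were at hand from RefSeq (build GRCm38.p6), each with 250 bases before and 50 bases after the annotated start, and none was used for *Nos2* and *Arg2*. Those of *Cd274* and *Lgals9* are shown because they shared a motif of interferon-regulated genes, and that of *Havcr2* because it encodes the receptor of galectin-9. The *Cd274* stretch is chr19:29367188-29367487 on the + strand, that of *Lgals9* chr11:78984875-78985174 on the - strand and that of *Havcr2* chr11:46454681-46454980 on the + strand. They read 5′ to 3′ along the gene, with motif matches in capitals.
Cd274: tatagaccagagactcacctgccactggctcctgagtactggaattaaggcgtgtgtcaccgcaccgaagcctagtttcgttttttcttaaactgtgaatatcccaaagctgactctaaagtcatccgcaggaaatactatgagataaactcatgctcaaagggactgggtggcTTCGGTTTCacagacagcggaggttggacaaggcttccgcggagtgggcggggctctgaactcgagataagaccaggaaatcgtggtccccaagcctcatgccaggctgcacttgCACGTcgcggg
Lgals9: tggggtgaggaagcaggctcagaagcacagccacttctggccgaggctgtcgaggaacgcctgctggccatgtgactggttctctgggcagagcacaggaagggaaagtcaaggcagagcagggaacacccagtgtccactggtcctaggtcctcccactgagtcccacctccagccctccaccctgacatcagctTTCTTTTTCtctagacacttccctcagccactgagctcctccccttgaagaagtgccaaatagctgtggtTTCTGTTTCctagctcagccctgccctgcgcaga
Havcr2: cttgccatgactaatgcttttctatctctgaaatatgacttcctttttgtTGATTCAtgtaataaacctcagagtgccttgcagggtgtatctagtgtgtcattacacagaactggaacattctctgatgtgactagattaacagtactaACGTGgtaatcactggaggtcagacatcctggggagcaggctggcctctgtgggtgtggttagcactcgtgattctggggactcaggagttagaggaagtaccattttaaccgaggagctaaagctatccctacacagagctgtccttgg
The capitals in *Cd274* mark an ISRE core (GAAANNGAA, here on the opposite strand) at -76 to -68 and a hypoxia response element core (ACGTG, opposite strand) at 40 to 44, counted from the start as 1. In *Lgals9* they mark ISRE cores on the opposite strand at -54 to -46 and at 17 to 25. In *Havcr2* they mark an AP-1 motif (TGANTCA) at -200 to -194 and an ACGTG core at -100 to -96. The ISRE core was found in 2 of the 8 promoters and in 8.56% of all 32851 promoters of this length, both strands searched. AP-1 was found in 2 of 8, *Havcr2* and *Vtcn1*, against 7.81% of all. The ACGTG core was found in 3 of 8, *Cd274*, *Havcr2* and *Ptgs2*, against 19.6% of all. None of the 8 held the TATA box TATAAA (13.6% of all), the GAS element TTCNNNGAA (8.3%) or the NF-kB motif GGGACTNTC (1.13%). A match describes the letters in the window only. *Cd274* and *Lgals9*, the pair with an ISRE core, had log2 fold changes of opposite sign, of which that of *Lgals9* passed the test.

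Among the enzymes, *Nos2* was the one whose tumors separated the models. GEM-BCC tumors held 1.05 CPM (29 counts, GEM2) to 2.97 CPM (104 counts, GEM5), with a median of 2.56 CPM. Tp-BCC tumors held 4.24 CPM (TP1, 72 counts), 7.78 CPM (TP2, 121 counts), 3.53 CPM (TP3, 59 counts) and 11.1 CPM (TP4, 156 counts). Every Tp-BCC tumor exceeded every GEM-BCC tumor, TP3 by the smallest margin. The log2 fold change was 1.61 ± 0.37 (SE), or 3.06-fold (edgeR adjusted p = 0.00805). It passed in 12 of the 13 fits that left out 1 tumor, the exception being that without TP4 (1.19, adjusted p = 0.0544). With TP1 and TP3 alone it was 0.83 (edgeR adjusted p = 0.235), and with TP2 and TP4 alone 2.12 (adjusted p = 0.00117).

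*Arg2* was the most variable of the 10 genes among GEM-BCC tumors and low in all Tp-BCC tumors. It was lowest at 1.21 CPM in GEM8, 4.85 CPM at the median and highest at 22.4 CPM in GEM5. The 4 Tp-BCC tumors held 1.12 CPM (TP1), 1.35 CPM (TP2), 2.04 CPM (TP3) and 0.5 CPM (TP4). TP1 and TP4 lay under all GEM-BCC tumors, and TP2 and TP3 overlapped only the lowest of them, GEM8 and GEM3. The fitted difference was -2.82 with an SE of 0.80 on the log2 scale (edgeR adjusted p = 0.0230), or 7.06-fold. Without TP1, TP2 or TP4 the adjusted p was 0.0564, 0.0631 and 0.0719, at log2 fold changes of -2.77, -2.9 and -2.62. *Arg2* did not pass with TP1 and TP3 alone (-2.51, edgeR adjusted p = 0.167) but did with TP2 and TP4 alone (-3.25, adjusted p = 0.0402). The cytosolic arginase *Arg1*, which is the arginase of the urea cycle and of many myeloid cells, had 1 to 90 counts per GEM-BCC tumor against 0 to 1 per Tp-BCC tumor, a CPM at least 4.27-fold lower. It entered the test through GEM-BCC alone and did not pass by edgeR (adjusted p = 0.0693) but did by DESeq2 (adjusted p = 0.0123).

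*Ptgs2* and *Nt5e* were split by the pairs of Tp-BCC tumors. *Ptgs2* was at 0.625 CPM (GEM1), 1.15 CPM and 7.69 CPM (GEM5) in the lowest, median and highest GEM-BCC tumor. TP1 and TP3 were at 1.47 and 2.51 CPM (25 and 42 counts), and TP2 and TP4 at 0.193 and 0.143 CPM (3 and 2 counts). Over all tumors the log2 fold change was -1.14 (SE 0.84, edgeR adjusted p = 0.351). With TP2 and TP4 alone it was -3.79 (adjusted p = 0.0261) and with TP1 and TP3 alone -0.29 (adjusted p = 0.871). *Nt5e* spanned 7.1 CPM (GEM1) to 65.5 CPM (GEM2) around a median of 20.3 CPM in GEM-BCC. TP1 and TP3 held 25.1 and 24.7 CPM, whereas TP2 and TP4 held 6.56 and 3.71 CPM. The overall log2 fold change of *Nt5e* was -0.88 (SE 0.63, adjusted p = 0.34), made up of -2.42 for TP2 and TP4 (adjusted p = 0.0352) and -0.16 for TP1 and TP3 (adjusted p = 0.909).

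**Figure D2:**
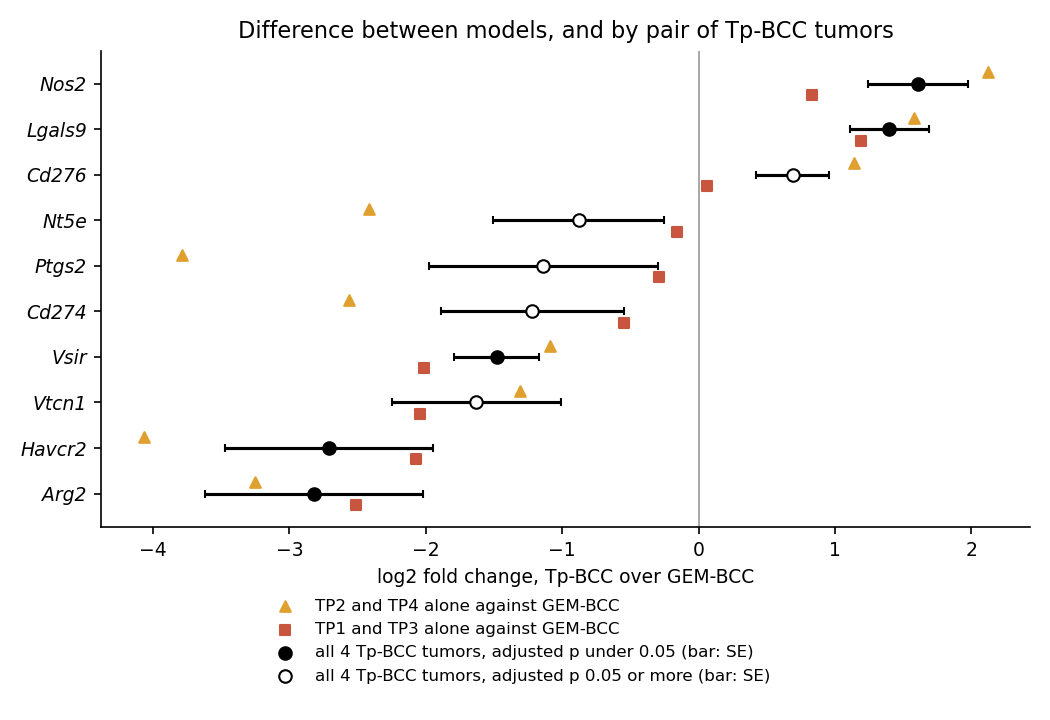
Log2 fold change of each gene, Tp-BCC over GEM-BCC, with its SE (circles, filled where the edgeR adjusted p was under 0.05), and the same with TP2 and TP4 alone (yellow triangles) or TP1 and TP3 alone (red squares). The triangles and squares lie on the same side of 0 for every gene but are far apart for *Ptgs2*, *Nt5e* and *Cd274*.

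The split within Tp-BCC followed the base composition of the transcripts. The log2 difference between the mean of TP2 and TP4 and that of TP1 and TP3 was -3.05 for *Ptgs2* (GC content 42.6%), -2.33 for *Cd274* (44.9%), -2.32 for *Nt5e* (48.0%), -1.11 for *Havcr2* (45.3%) and -0.81 for *Arg2* (46.1%). It was 0.41 for *Lgals9* (51.8%), 0.62 for *Vtcn1* (48.2%), 0.89 for *Vsir* (55.2%), 1.09 for *Cd276* (57.1%) and 1.25 for *Nos2* (55%). Across the 10 genes GC content and this difference had a Pearson's r of 0.86 and a rho of 0.92, as a description, since the genes share the same 4 libraries. All tested genes showed the same order, with median differences of -1.81 for the 2466 genes under 45% GC, -0.86 for 3614 genes from 45% to 50%, 0.35 for 4038 genes from 50% to 55% and 0.91 for 4166 genes of 55% or more. After removal of each tumor's GC trend the split was -1.34 for *Ptgs2*, -0.87 for *Cd274*, -1.48 for *Nt5e*, 0.29 for *Lgals9*, 0.22 for *Vsir*, 0.27 for *Cd276* and 0.60 for *Nos2*. It changed sign for *Havcr2* (0.28) and *Arg2* (0.43) and grew for *Vtcn1* (1.38). With the GC trends as offsets in edgeR, *Arg2*, *Lgals9*, *Vsir* and *Nos2* passed as before, at log2 fold changes of -2.45, 1.36, -1.74 and 1.31 (adjusted p = 0.0277, 0.00294, 0.000174 and 0.00726). *Havcr2*, again tested through GEM-BCC alone, had a fitted value of -2.48 (edgeR adjusted p = 0.0212). In limma-trend after GC correction *Arg2* did not pass (-1.85, adjusted p = 0.0514). *Havcr2*, with the same limit, was under the fold threshold (-1.53, limma-trend adjusted p = 0.0335), so that neither was called. With the GC offsets in edgeR over all 4 Tp-BCC tumors, *Cd274* (-1.0), *Ptgs2* (-1.11) and *Nt5e* (-0.76) did not pass (adjusted p = 0.197, 0.257 and 0.32). Nor did *Cd276* (0.35) and *Vtcn1* (-1.26), with an edgeR adjusted p of 0.134 and 0.148. The part of base composition in these differences was not tested further.

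**Figure D3:**
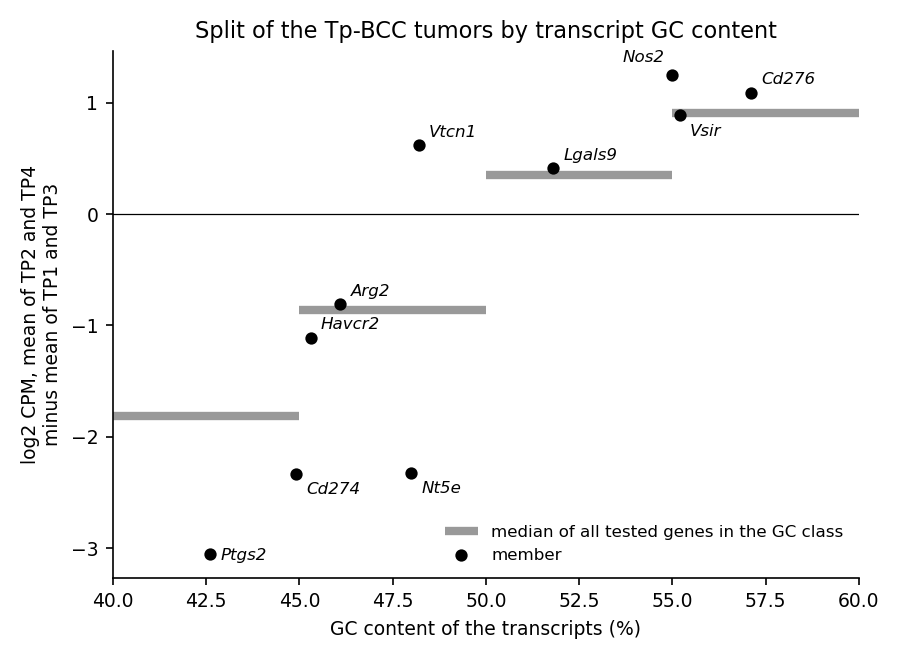
Log2 CPM of TP2 and TP4 (mean) minus that of TP1 and TP3 (mean, vertical axis) against the GC content of the gene's transcripts in percent (horizontal axis) for the 10 genes (points), with the median of all tested genes in each GC class (grey bars). Genes under 50% GC other than *Vtcn1* were lower in TP2 and TP4, and genes above it were higher.

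Within the GEM-BCC model the 10 genes differed in how much they varied. The SD of log2 CPM over 9 tumors was 1.48 for *Arg2*, 1.18 for *Ptgs2*, 1.11 for *Nt5e* and 1.03 for *Vtcn1*. The median SD of genes of like abundance (within 0.5 log2 CPM) was 0.57, 0.77, 0.39 and 0.83 for these 4 in the same order, so that *Arg2* and *Nt5e* were the furthest above it. *Cd276* (0.39), *Vsir* (0.46) and *Lgals9* (0.55) varied little in absolute terms, against 0.35, 0.35 and 0.39 for genes of like abundance. *Nos2* (0.56 against 0.72) and *Cd274* (0.74 against 0.83) varied less than such genes did, and *Havcr2* (0.93 against 0.86) somewhat more.

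Tumors of the same mouse, which share host and induction, differed in some of these genes by more than the spread over mice. *Arg2* was 6.57-fold higher in GEM2 than in GEM3 and 15.8-fold higher in GEM7 than in GEM8, which are tumor pairs of single mice. *Nt5e* was 5.1-fold and 2.89-fold higher in the same tumors of these pairs. *Vtcn1* was 4.88-fold higher in GEM7 than in GEM8, and *Lgals9* was 3.61-fold higher in GEM3 than in GEM2. On the log2 scale, both *Arg2* differences (-2.71 for GEM3 minus GEM2 and -3.98 for GEM8 minus GEM7) exceeded the SD of 0.97 over the means of the 7 mice. *Havcr2* (0.69 and -0.09) and *Ptgs2* (0.53 and 0.12) differed within mice by less than their SDs over mice of 1.02 and 1.32.

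The relation of the 10 genes to myeloid and epithelial markers was measured across the 7 GEM-BCC mice, with 2 tumors of a mouse averaged, against scores for macrophages, neutrophils, basal epithelium and differentiated epidermis. All these tumors belong to batch 1. A score is the mean over the list's tested genes of log2 CPM, each gene centred on its mean over the mice. Of the 40 relations, 0 passed after adjustment by the Benjamini-Hochberg method with either coefficient, and 6 had an unadjusted exact 2-sided permutation p under 0.05 with Pearson's r and 6 with Spearman's rho.

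*Havcr2* had the smallest p of the 40 relations, with the macrophage score. Its r was 0.88 (exact permutation p = 0.00397, adjusted p = 0.159) and its rho 0.86 (exact permutation p = 0.0238, adjusted p = 0.273), and r was 0.66 without the 2 mice farthest from the median score. The lowest macrophage score (-1.05) and the lowest *Havcr2* level (-2.82 log2 CPM) were both those of GEM4, and the highest score (1.07, GEM6) went with one of the highest *Havcr2* levels (0.13). With the GC trend removed r was 0.91 and passed the adjustment (exact permutation, adjusted p = 0.0397). With basal epithelium *Havcr2* had an r of -0.71 (exact permutation p = 0.0425, adjusted p = 0.283) and a rho of -0.86 (exact permutation p = 0.0238, adjusted p = 0.273), and r was -0.58 without the 2 farthest mice.

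*Vtcn1* followed differentiated epidermis, the suprabasal keratin and cornified envelope genes, with an r of 0.90 (exact permutation p = 0.0115, adjusted p = 0.19), a rho of 0.82 (exact permutation p = 0.0341, adjusted p = 0.273) and an r of 0.79 without the 2 farthest mice. The 4 tumors with the highest scores, GEM7 (1.76), GEM4 (1.65), GEM5 (0.95) and GEM6 (0.86), were the 4 with the most *Vtcn1*, at 2.0 to 2.44 CPM, and all other GEM-BCC tumors held less than 1 CPM. Over the 9 tumors rather than 7 mice r was 0.93 (adjusted permutation p = 0.0496), a p that treats the 2 tumors of a mouse as independent and so is too small. *Vsir* ran against the same score with an r of -0.84 (exact permutation p = 0.0181, adjusted p = 0.19) and a rho of -0.79 (exact permutation p = 0.048, adjusted p = 0.32), and r was -0.83 without the 2 farthest mice. *Cd276* did so with an r of -0.71 (exact permutation p = 0.0405, adjusted p = 0.283) and a rho of -0.89 (exact permutation p = 0.0123, adjusted p = 0.273), and r was -0.79 without the 2 farthest mice. *Arg2* had an r of 0.70 (exact permutation p = 0.079, adjusted p = 0.402) and a rho of 0.82 (exact permutation p = 0.0341, adjusted p = 0.273) with differentiated epidermis, and r was 0.67 without the 2 farthest mice.

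*Ptgs2* had an r of -0.84 with basal epithelium (exact permutation p = 0.019, adjusted p = 0.19) and a rho of -0.71 (exact permutation p = 0.0881, adjusted p = 0.503). It was -0.35 without the 2 farthest mice, so that the relation rested on them, and only GEM5 and GEM6 held over 6 CPM of *Ptgs2*. No relation of *Lgals9*, *Nos2*, *Cd274* or *Nt5e* to any of the 4 scores had an unadjusted exact permutation p under 0.05. Their r with the macrophage score were 0.55, -0.15, 0.28 and -0.53.

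**Figure D4:**
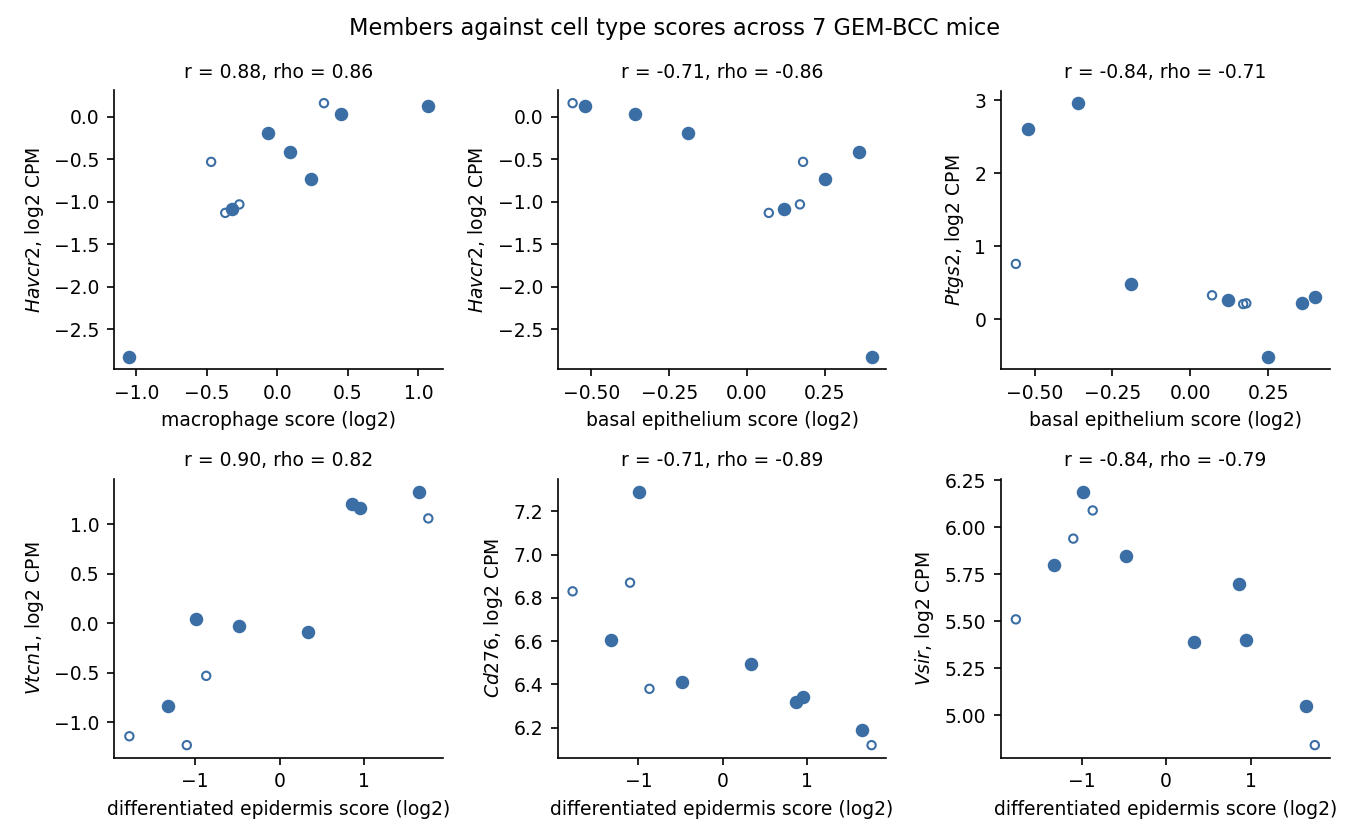
Log2 CPM of a gene (vertical axis) against a cell type score (log2 scale, horizontal axis) in GEM-BCC, with 1 filled point per mouse (n = 7) and open points for the 2 tumors of those mice that gave 2. Each panel gives Pearson's r and Spearman's rho over the mice, such as 0.88 and 0.86 for *Havcr2* with macrophages and 0.90 and 0.82 for *Vtcn1* with differentiated epidermis.

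Of the 45 pairs among the 10 genes, 0 passed after adjustment and 4 had an unadjusted exact permutation p under 0.05 by Pearson's r across the 7 mice, as did 2 by Spearman's rho. *Cd274* and *Ptgs2* had an r of 0.80 (exact permutation p = 0.0385, adjusted p = 0.498) and a rho of 0.68 (exact permutation p = 0.11, adjusted p = 0.704), and r was 0.59 without the 2 farthest mice. GEM5 held the most of either, and GEM1 the least *Ptgs2*. *Vsir* and *Cd276* had an r of 0.79 (exact permutation p = 0.0266, adjusted p = 0.498), a rho of 0.68 (exact permutation p = 0.11, adjusted p = 0.704) and an r of 0.24 without the 2 farthest mice. *Cd276* ran against *Cd274* with an r of -0.75 (exact permutation p = 0.0442, adjusted p = 0.498), a rho of -0.57 (exact permutation p = 0.2, adjusted p = 0.85) and an r of -0.87 without the 2 farthest mice. It ran against *Nt5e* with an r of -0.81 (exact permutation p = 0.0397, adjusted p = 0.498) and a rho of -0.54 (exact permutation p = 0.236, adjusted p = 0.85), but r turned to 0.35 without the 2 farthest mice. *Havcr2* and its ligand gene *Lgals9* had an r of 0.53 (exact permutation p = 0.205, adjusted p = 0.564), a rho of 0.68 (exact permutation p = 0.11, adjusted p = 0.704) and an r of 0.34 without the 2 farthest mice.

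By profile over the 7 mouse means, out of 12118 or 12119 genes at an average log2 CPM of 1 or more, the gene most like *Cd274* was *Rufy3* (r 0.984), followed by *Irgm1* (0.961), an interferon-inducible GTPase. *Ptgs2* was most like *Ccl6* (r 0.984), a myeloid chemokine, and *Clec2d* (0.959). *Vtcn1* was most like *Pstpip2* (r 0.988), *Adgrf4* (0.984) and *Krt75* (0.975), a keratin of the hair follicle. *Arg2* was most like *Acot1* (r 0.977), *Wnk3* (0.975) and *Jun* (0.968). *Vsir* was most like *Npl* (r 0.993), *Cd276* like *Slc49a4* (0.987), *Havcr2* like *Txndc15* (0.978), *Lgals9* like *Kcnab2* (0.965), *Nos2* like *Cand1* (0.963) and *Nt5e* like *Snx10* (0.968). These likenesses rest on 7 points that share libraries with each other and are a description without a test. As the highest of 12118 or 12119 genes, such r can be high without any relation, so the functions named carry no result.

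*Nos2* and *Lgals9*, which both rose, are neighbours on mouse chromosome 11. Of the 37 other tested genes that start within 1 Mb of *Nos2* in GRCm38.p6, 4 passed the adjusted p in the direction of Tp-BCC and 2 in that of GEM-BCC, with a median log2 fold change of 0.20. That is 16.2% of them, against 19.4% of all tested genes. Those that rose beside *Lgals9* were *Rab11fip4* (2.65), *Sarm1* (1.52) and *Traf4* (0.92), and those lower were *Ift20* (-1.09) and *Foxn1* (-3.47), the latter tested through GEM-BCC alone. *Arg2* on chromosome 12 had 14 such neighbours, of which 0 were higher and 3 (21.4%) lower past the adjusted p, *Gphn* (-1.55), *Rdh12* (-1.42) and *Vti1b* (-0.77), with a median of -0.57. The 16 neighbours of *Cd274* on chromosome 19 had 0 past the edgeR threshold (2 at an unadjusted p under 0.05, 0 by DESeq2 and 1 by limma) and a median of -0.04, and the 17 neighbours of *Vsir* had 2 higher, 0 lower and a median of -0.1.

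The wider pathways were followed in 143 further genes, of which 117 were tested. Past the adjusted p 16 rose and 10 fell, or 22.2%, and 3 were called (2.56%), against the 19.4% and 5.57% of all tested genes given above, and their median log2 fold change was -0.04. Of the tested genes 7 reached the filter's count in GEM-BCC tumors alone, 1 of them (*Btnl2*) past the adjusted p. No list median changed when genes near 0 counts were set to their bounds. Of the 26 genes past the adjusted p, 11 stayed past it in every fit that left out 1 tumor: *Tnfrsf14*, *Lgals3*, *Nectin2*, *Cd47*, *Nos3*, *Abcc4*, *Entpd2*, *Alpl*, *Ada*, *Adora2a* and *Irf9*. *Bag6*, *Cd24a*, *Asl*, *Srm*, *Ptges* and *Irf2* missed it without TP2 or without TP4 (edgeR adjusted p of 0.0522 to 0.171), *Timd2* and *Slco2a1* without TP1 (0.0641 and 0.0525), and *Cd200* without any 1 of the Tp-BCC tumors (0.0505 to 0.06). *Oat*, *Ptgis*, *Entpd6* and *Slc29a2* also missed it without some of the GEM-BCC tumors and passed in 2, 5, 4 and 6 of 13 such fits. Every such fit kept a tumor of both Tp-BCC pairs. Over 14 other fits, which included single pairs and the replicate block, *Tnfrsf14* passed in all. *Nectin2*, *Entpd2*, *Alpl*, *Nos3*, *Lgals3* and *Abcc4* each missed the adjusted p in 2 of these, and *Cd47*, *Ada* and *Irf9* in 1. GC content was 53.8% (*Ada*) to 60.3% (*Adora2a*) for those of the 11 that rose, and its part was not tested.

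In the B7 and PD-1 family 1 of 11 tested genes rose, 1 was lower and 9 did not pass, with a median log2 fold change of -0.39. *Tnfrsf14*, the HVEM receptor that engages BTLA and CD160, rose from 0.601 ± 0.282 to 5.74 ± 1.18 CPM (SD, n = 9 and 4), a log2 fold change of 3.24 (SE 0.39, edgeR adjusted p = 5.25e-05) with no overlap between models. *Btnl2*, a butyrophilin-like inhibitor of T cells, had 5 to 21 counts per GEM-BCC tumor and at most 2 per Tp-BCC tumor, a CPM at least 1.92-fold lower. It entered the test through GEM-BCC alone (adjusted p = 0.0232), and it missed the threshold without TP3 (0.054) or TP1 (0.0618). Its call rests on a fitted log2 fold change of -2.82, which its bound does not reach. The PD-1 gene *Pdcd1* reached 10 counts at most in a GEM-BCC tumor and 1 in a Tp-BCC tumor, and the second PD-1 ligand gene *Pdcd1lg2* reached 31 and 6, so neither was tested. *Igsf11*, which encodes a ligand of VISTA, reached 9 counts in GEM-BCC tumors and was listed without a value for Tp-BCC.

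Of 19 tested genes around TIM-3, TIGIT, LAG-3 and innate checkpoints, 3 rose and 4 fell, with a median of 0.25. *Timd2* (1.71), a TIM family gene within 1 Mb of *Havcr2* on chromosome 11, *Nectin2* (1.38), a ligand of TIGIT, and *Bag6* (0.85) rose. The second galectin *Lgals3* fell from 44.9 ± 26.9 to 11.3 ± 5.57 CPM (log2 fold change -1.99, SE 0.49, edgeR adjusted p = 0.0113), opposite to *Lgals9*. The "don't eat me" signals *Cd47* (-1.42, adjusted p = 0.000406, no overlap) and *Cd24a* (-1.42, adjusted p = 0.0262) and the myeloid checkpoint ligand *Cd200* (-0.88, adjusted p = 0.0287) also fell.

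Among the arginine and nitric oxide genes 3 of 15 rose and 1 fell, with a median of 0.38. Endothelial nitric oxide synthase *Nos3* rose with *Nos2*, from 3.77 ± 0.90 to 13.6 ± 7.21 CPM (log2 fold change 1.85, SE 0.31, edgeR adjusted p = 0.00102). Argininosuccinate lyase *Asl*, which regenerates arginine, rose by 0.95 and spermidine synthase *Srm* by 0.87, and ornithine aminotransferase *Oat*, next to arginase in ornithine use, fell by 0.76 on the log2 scale. In the prostaglandin E2 list 2 of 18 rose and 2 fell, with a median of 0.09. *Ptges*, the inducible terminal synthase that acts after *Ptgs2*, rose (1.3, SE 0.33, adjusted p = 0.0137), as did prostacyclin synthase *Ptgis* (1.70). The prostaglandin transporters *Slco2a1* (-1.73, adjusted p = 0.0182) and *Abcc4* (-1.95, adjusted p = 0.00481), which take up and export prostaglandins, fell.

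In the extracellular adenosine list 6 of 19 rose and 1 fell, where 11.1% of all tested genes rose and 8.35% fell. Only 7 of the 19 had a positive log2 fold change, and the median was -0.21. The GC content of those that rose was 53.8% (*Ada*) to 60.3% (*Adora2a*). *Entpd2* (1.56, edgeR adjusted p = 0.00283) and *Entpd6* (0.65) encode nucleotide hydrolases upstream of CD73, *Alpl* (1.13) a phosphatase that can also make adenosine, *Ada* (1.48, adjusted p = 0.00122) the deaminase that removes it, *Slc29a2* (0.90) a nucleoside transporter and *Adora2a* (1.43, adjusted p = 0.00819) an adenosine receptor. *Enpp1*, another ectonucleotidase, fell by 5.65 on the log2 scale (SE 1.76, adjusted p = 0.0351) without overlap, but its GEM-BCC tumors spanned 45.4 to 10200 CPM. Without GEM4 its log2 fold change was -2.78 (adjusted p = 0.00904), by DESeq2 it was -2.74 (adjusted p = 3.67e-06), and by edgeR it missed the threshold without any 1 of the Tp-BCC tumors (adjusted p of 0.0556 to 0.1). *Entpd1* (CD39), which supplies the substrate of CD73, was at 33.6 ± 13.9 and 44.3 ± 22.1 CPM and did not pass (0.40, adjusted p = 0.465). Tryptophan and other suppressive factors had 0 of 11 past the adjusted p by edgeR (2 at an unadjusted p under 0.05, 1 by DESeq2 and 0 by limma) and a median of 0.01, and *Ido1* had 0 to 1 counts in GEM-BCC and no value in Tp-BCC. Of 24 tested genes in the interferon-gamma and NF-kB list, *Irf2* rose (0.65, adjusted p = 0.0258), *Irf9* fell (-1.16, adjusted p = 0.00278), and 22 did not pass (median -0.28).

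**Figure D5:**
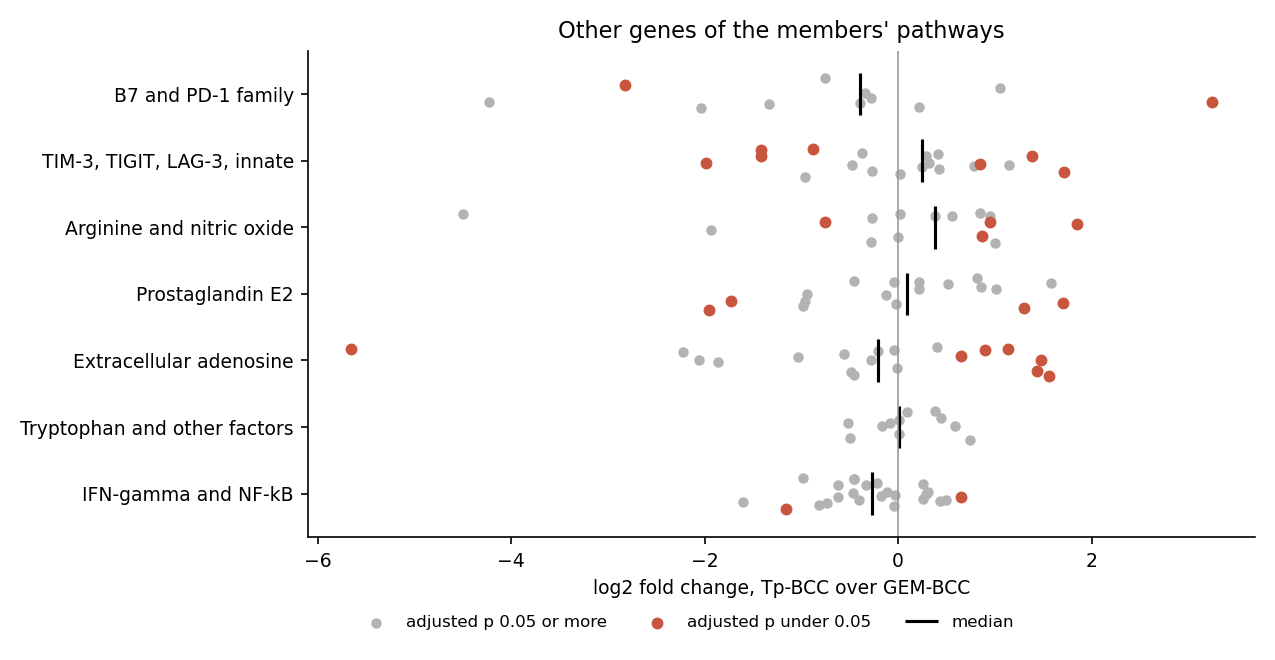
Log2 fold change, Tp-BCC over GEM-BCC (horizontal axis), of the 117 tested genes of the 7 pathway lists (rows), red where the edgeR adjusted p was under 0.05 and grey otherwise, with the median of each list (black). The red points lie on both sides of 0, and the widest are *Enpp1* at -5.65 and *Tnfrsf14* at 3.24.

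Markers of other cell types also differed between models. In bulk tumors fewer cells of a type and less RNA per cell cannot be told apart. Of 20 macrophage markers 2 rose, among them *Cd68* (log2 fold change of 1.31), 0 fell, and their summed level was 571 to 848 CPM in Tp-BCC against 248 to 694 in GEM-BCC, beside the lower *Havcr2* and *Vsir*. The pan-leukocyte gene *Ptprc* was at 2.62 ± 2.00 and 2.50 ± 2.41 CPM (SD, n = 9 and 4). Of 14 neutrophil markers 7 were tested, of which 4 had a higher fitted level in Tp-BCC, with a median log2 fold change of 0.13. The 2 that passed, *S100a8* (at least 4.33-fold lower in Tp-BCC) and *S100a9* (at least 4.32-fold), were tested through GEM-BCC alone. *Ly6g* had 0 to 1 counts in GEM-BCC and no value in Tp-BCC. Differentiated epidermis had 5 of 13 tested markers lower and a summed level of 155 to 1050 CPM in GEM-BCC against 135 to 161 in Tp-BCC. It moved in the same direction as *Arg2*, as *Vtcn1*, which did not pass, and as *Vsir*. Across the GEM-BCC mice, however, *Vsir* ran against this score (r of -0.84). Endothelial markers (5 of 9 higher, 143 to 344 against 515 to 787 CPM) and adipocyte markers (5 of 5 tested higher, 0.791 to 5.39 against 17.5 to 249 CPM) were higher in Tp-BCC. So were *Nos2*, *Nos3* and *Lgals9*, which is a shared direction only, as 11.1% of all tested genes rose. Of 10 fibroblast markers 4 rose and 2 fell, and of 5 tested skeletal muscle markers 1 rose and 0 fell. The part of these cell types in the differences was not tested.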

How the data were processed

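Poly(A) RNA of 9 GEM-BCC and 4 Tp-BCC tumors was sequenced with 1 library per tumor. According to the submitters' processing notes and the methods, the authors aligned reads to mouse transcripts (GRCm39) with Bowtie2 2.3.4.3 and estimated expected counts per gene with RSEM 1.3.1, which were deposited without rounding or normalization. Genes are listed by symbol, and 1932 genes have values for GEM-BCC alone, 65 for Tp-BCC alone and 2416 for no tumor, for which the reason is not given in the sources used here.

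Expected counts were rounded to whole numbers. Genes without missing values that reached 10 counts in 4 or more tumors were fitted with edgeR 4.0.16 in R 4.3.3 (TMM, quasi-likelihood F test, robust, 2-sided, without covariates). Benjamini-Hochberg adjustment ran over 14390 genes. Called genes had an adjusted p under 0.05 and changed by more than 2 on the log2 scale. SEs were obtained by dividing log2 fold changes by the root of F, and log2 CPM used a prior count of 2. A gene with at most 3 counts in each Tp-BCC tumor is given by a bound, with 3 counts per library averaged over the 4 tumors. This covers counting error only. The p-values rest on the spread within both models, that among GEM-BCC tumors and that among Tp-BCC tumors. Tumors of the same mouse were fitted as independent. Because all Tp-BCC tumors descend from 1 tumor, their part is the spread between its transplants, and spread between parental tumors is not covered.

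GC content and length are medians over protein-coding transcripts of GENCODE vM21 (14284 of 14390 tested genes matched, 99.3%), and GC trends used lowess with a span of 0.3. Neighbouring genes and promoters came from RefSeq (GRCm38.p6). This build differs from that of the counts, so its coordinates served only to pick genes within 1 Mb and to place the promoters printed. Correlations over 7 mice were tested exactly over all 5040 orders. Python 3.11.15, scipy 1.17.1, limma 3.58.1 and DESeq2 1.42.0 were also used.

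The 10 genes, the pathway and marker lists and the tests were chosen with earlier results of these data known. Genes named from a pathway list are those past an adjusted p of 0.05, up to 4 per direction by abundance, and direct partners of the 10 genes (*Arg1*, *Entpd1*, *Ptges*, *Pdcd1*, *Pdcd1lg2*, *Igsf11*, *Ptprc*). Other named genes, namely chromosomal neighbours, *Ido1*, *Slc29a2*, *Adora2a* and single markers, were chosen after their values were seen. The 3 most alike genes leave out predicted genes named Gm and a number and names ending in Rik. Alternatives were other scalings, filters and tools, counts summed per mouse, a replicate block and each tumor left out. GC offsets, GC-corrected relations, the pairs of Tp-BCC tumors and relations between the 10 genes were added after the data had been examined. Values of a macrophage marker counted in its list are not reported here.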

Additional observations from a re-analysis of the deposited data

Results flagged for a closer look

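Of 28 groups of tumors examined for a value set apart from the rest by Dixon's criterion, 3 held one, where chance alone gives about 1 in 20. *Havcr2* in GEM4 was at -2.82 log2 CPM, with the nearest GEM-BCC tumor at -1.13. In TP2 the macrophage score was -0.31 with the nearest Tp-BCC tumor at 0.27, and the basal epithelium score was 0.28 with the nearest at -0.09. The causes were not tested.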

How the results depend on the processing

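The direction of each of the 10 genes was the same in all fits made. Over fits that left out 1 tumor, 0 to 2 of them were called and 2 to 6 passed the adjusted p. The lowest numbers came without TP1 (1 called), TP2 (0 called, 3 past) and TP4 (0 called, 2 past). Without TP2 or TP4, 6 of the 10 still had an unadjusted edgeR p under 0.05. DESeq2 size factors, library size alone, no filter, missing values set to 0, dispersions that were not robust and limma-trend each gave 2 called and 5 past, and DESeq2 and counts summed per mouse gave 2 and 6. With the count minimum of 10 asked of 10 tumors, *Havcr2* was not tested and 1 was called. With GC correction in limma-trend 0 were called and 4 passed (7 at an unadjusted p), *Arg2* not among them. The counts in this section include *Havcr2* by its fitted value wherever it was tested, although it entered the test through GEM-BCC alone. Without it the fit reported had 1 called and 4 past among 9 genes. A fold threshold of 1 gave 5 called. Without TP1 and TP3, 6 were called and 9 passed, and without TP2 and TP4 1 was called and 1 passed.

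The replicate numbers are part of the tumor names and were not taken as a pairing. The correlations of the deviations of same-numbered tumors from the means of their models were -0.381, -0.122, -0.101 and -0.179. They cannot decide on a pairing, since the GC trends of the tumors enter them too. With the numbers as a replicate block 0 of the 10 were called, 0 passed the adjusted p by edgeR (5 at an unadjusted p under 0.05) and 1 pathway gene was called.

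Of the pathway genes 3 were called in the fit reported, 2 to 6 when 1 tumor was left out, 8 by DESeq2, 5 after GC correction in limma-trend or with GC offsets, 12 without TP1 and TP3 and 5 without TP2 and TP4. *Ptprc* turned from -0.06 to 0.72 without TP2 and TP4, 0.47 with the replicate block, 0.13 after GC correction in limma-trend, 0.03 with GC offsets and to between -0.84 and 0.26 when 1 tumor was left out, and *Entpd1* from 0.40 to -0.35 without TP1 and TP3. The number of relations to scores past the adjustment was 1 over 9 tumors and 1 with the GC trend removed. The causes were not tested.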
